A study of Oryctolagus cuniculus with 4 samples.

Results

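Elastic fibre and microfibril genes were examined in rabbit ear hypertrophic scar (HS) tissue with and without drug-loaded microneedles (MNs). The members were 10 genes fixed by name: ELN, FBN1, FBN2, FBLN2, FBLN5, EFEMP1, EFEMP2, MFAP2, MFAP4 and EMILIN1. A row with the symbol was found for 5 of the 10, among 13913 genes in all: FBN2, FBLN2, FBLN5, EFEMP1 and EMILIN1. ELN, FBN1, EFEMP2, MFAP2 and MFAP4 were not analysed here, so elastin itself and the main fibrillin of adult tissue are outside what follows.

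The study made 10x Genomics droplet libraries from the ventral epidermis and dermis of scars on the ears of female rabbits, labelled wild type and bought at 10 to 12 weeks of age. The HS group, with 2 libraries, carried scars without treatment. The drug-loaded MNs group, also with 2 libraries, carried the same kind of scar and received a patch once a week, 3 times in all. The needle tips of the patch stay in the skin and release a 5-fluorouracil derivative. Tissue of both groups was taken on day 43 after wounding. No group with drug-free MNs and no normal skin was among these 4 libraries, so the drug cannot be told apart from the needles. The labels did not say whether the 2 tissues of a group came from separate rabbits. The paper's supplement calls them biologically independent samples. The p-values below measure only the spread between these libraries.

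Elastic fibres give skin its recoil. They consist of a core of cross-linked elastin laid down on a scaffold of microfibrils, which are beaded filaments of fibrillin. Fibulins and EMILINs sit between the core and the scaffold and help to place elastin, lysyl oxidases cross-link it, and microfibrils also hold latent TGF-beta through its binding proteins. In hypertrophic scars the elastic network is known to be sparse and disordered.

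Each library had 1 value per gene, covering cells of all types, and how the cells had been combined was not stated. The values were brought to 1000000 in each library, so that 1 unit stands for 1 millionth part of a library. Each library listed between 11844 and 12059 genes above 0, and the depth was unknown because the values had been scaled to a common total. Whether the values had been corrected for gene length was not stated, so each gene is compared with itself between libraries and not with other genes. In such values, fewer cells of a type and less RNA per cell cannot be told apart. Marker genes of the labelled tissue were present: the 8 keratinocyte markers in the table summed to between 40007 and 59643 units per library, and the 9 fibroblast markers to between 22903 and 49298.

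All 5 analysed members were higher in both drug-loaded MNs libraries than in either HS library, by 1.80-fold to 3.08-fold in the group means. None passed the test across all genes. In limma, with Benjamini-Hochberg adjustment over 9348 genes, their adjusted p-values lay between 0.330 and 0.495. The same test called 4 of 9348 genes, 0.0428%. Groups that did not overlap, with drug-loaded MNs higher, occurred in 26.6% of all tested genes, and log2 fold changes above 0 in 64.6%. At an unadjusted p under 0.05 in limma, 7.26% of genes were higher, and all 5 analysed members were among them. Their median log2 fold change was 1.03, beside 0.12 for all tested genes. Median ratio scaling put the median of all genes at -0.011, and the members then ran from 0.71 to 1.58. It also moved the split of all genes at an unadjusted p under 0.05 from 679 higher and 130 lower to 494 higher and 277 lower. Mitochondrially encoded genes, whose share is a sign of cell quality, took 2.75% and 2.80% of the total in HS, against 4.37% and 4.58% with drug-loaded MNs, and thus separated the groups in the same direction. With a total that left out these, ribosomal protein and the 50 highest genes, the members ran from 0.84 to 1.71. All 5 had values well above the minimum mean of 1 unit in every library, the lowest being 9.15 units, so the filter on low values decided nothing about them.

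**Figure D1:**
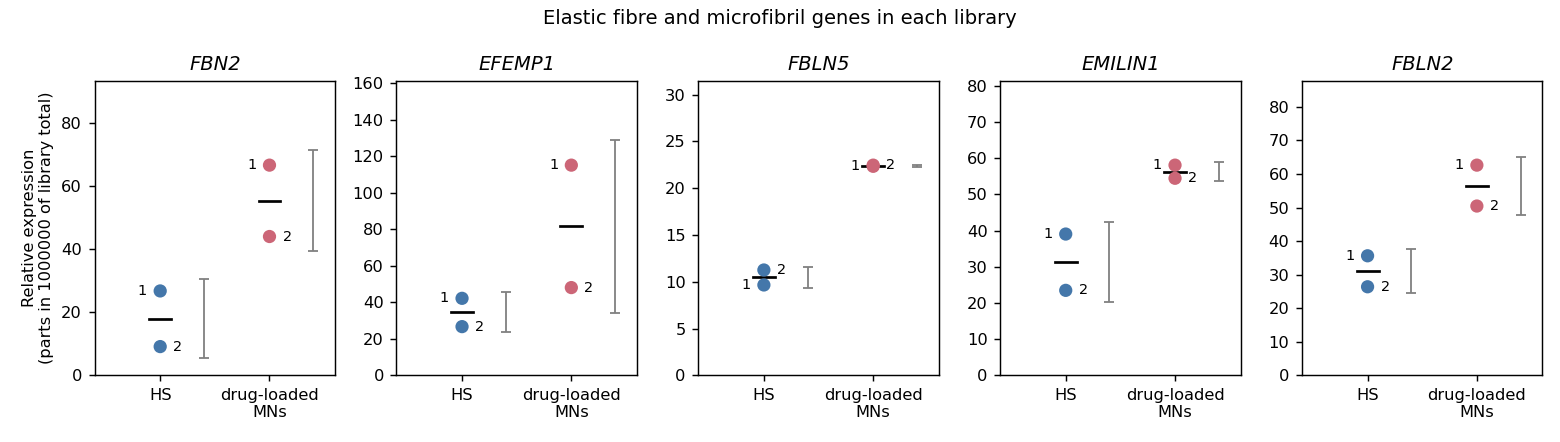
Relative expression of the 5 analysed elastic fibre and microfibril genes (parts in 1000000 of the library total, each axis from 0) in 2 HS libraries (blue) and 2 drug-loaded MNs libraries (red), with replicate numbers beside the points. Black lines are group means and grey bars are mean ± SD (n = 2). In each gene both red points lie above both blue points, with the narrowest gap in EFEMP1 and the tightest replicates in FBLN5.

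FBN2 encodes fibrillin-2, the fibrillin most abundant in developing tissue, where it builds microfibrils together with fibrillin-1. Its expression (ENSOCUG00000008226) was 26.8 and 9.15 units in HS replicates 1 and 2, and 66.8 and 44.1 units in drug-loaded MNs replicates 1 and 2. The groups did not overlap, although the HS libraries differed from each other by 2.93-fold, more than the 1.64-fold between the highest HS and the lowest drug-loaded MNs library. The HS mean was 18.0 ± 12.5 units and the drug-loaded MNs mean 55.4 ± 16.0 units (SD, n = 2 each), a 3.08-fold difference. On the log2(value + 1) scale, where a low gene shows less than its full difference, the fold change was 1.72 (SE 0.47, 95% interval 0.63 to 2.81, adjusted p 0.346 in limma). It ranked 31st of 9348 genes from the highest log2 fold change. Single libraries moved this value. It was 2.45 without HS replicate 1 and 0.99 without HS replicate 2, and it passed the threshold without drug-loaded MNs replicate 2 (log2 fold change 2.01, adjusted p 0.0166 in limma). Over all alternatives its limma adjusted p ran from 0.000141 to 0.554.

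Among the fibulins, FBLN5 was the most even within groups. It encodes fibulin-5, which binds elastin and cell surface integrins and is needed to build elastic fibres in skin. Its expression (ENSOCUG00000013175) was 9.66 and 11.3 units in HS, against 22.3 and 22.5 with drug-loaded MNs. Within a group the libraries differed by at most 1.17-fold, and the lowest drug-loaded MNs library lay 1.98-fold above the highest HS library. The means were 10.5 ± 1.13 and 22.4 ± 0.0884 units (SD, n = 2 each), and the log2 fold change was 1.03 (SE 0.25, 95% interval 0.44 to 1.63, adjusted p 0.330 in limma). With 1 library left out the value stayed between 0.93 and 1.13.

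EFEMP1, also named fibulin-3, is a fibulin of connective tissue and basement membranes whose loss in mice reduces elastic fibres in fascia. Its expression (ENSOCUG00000014657) was 42.2 and 26.7 units in HS, against 115 and 48.1 with drug-loaded MNs. Drug-loaded MNs replicate 1 stood far above the other 3 libraries, while replicate 2 lay only 1.14-fold above the higher HS library. The means were 34.5 ± 11.0 and 81.6 ± 47.4 units (SD, n = 2 each), and the log2 fold change was 1.13 (SE 0.42, 95% interval 0.14 to 2.11, adjusted p 0.495 in limma). Without drug-loaded MNs replicate 1 the log2 fold change was 0.50. Without drug-loaded MNs replicate 2 it was 1.75 and passed the threshold (adjusted p 0.0240 in limma). Over all alternatives its limma adjusted p ran from 0.0121 to 0.99996.

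FBLN2 encodes fibulin-2, which binds fibrillin, fibronectin and basement membrane proteins and is laid down during wound repair. Its expression (ENSOCUG00000005900) was 35.6 and 26.4 units in HS, against 62.6 and 50.4 with drug-loaded MNs. Each drug-loaded MNs library exceeded each HS library by at least 1.42-fold, and libraries of a group differed by at most 1.35-fold. The log2 fold change was 0.85 (SE 0.26, 95% interval 0.25 to 1.46, adjusted p 0.404 in limma). It ranged from 0.64 to 1.06 with 1 library left out.

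EMILIN1 encodes a glycoprotein found where elastin meets the microfibrils, which also restrains processing of the TGF-beta precursor. Its expression (ENSOCUG00000006872) was 39.0 and 23.5 units in HS, against 58.1 and 54.4 with drug-loaded MNs. The drug-loaded MNs libraries lay within 1.07-fold of each other, whereas the HS libraries differed by 1.66-fold. The log2 fold change was 0.87 (SE 0.29, 95% interval 0.19 to 1.55, adjusted p 0.428 in limma). It was 0.52 without HS replicate 2 and 1.22 without HS replicate 1.

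**Figure D2:**
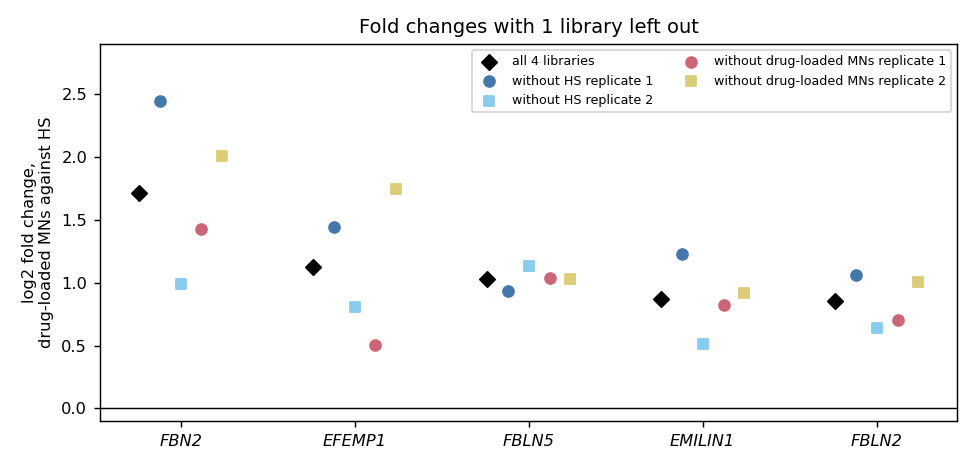
Log2 fold change of each analysed member, drug-loaded MNs against HS, on the log2(value + 1) scale, with all 4 libraries (black diamonds) and with 1 library left out (colored points). All points lie above 0; those of FBLN5 stay between 0.93 and 1.13, while those of FBN2 run from 0.99 to 2.45 and those of EFEMP1 from 0.50 to 1.75.

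The members differed in which library carried the difference. FBN2, EFEMP1, FBLN2 and EMILIN1 were each higher in replicate 1 than in replicate 2 of both groups, and FBLN5 was not. On the log2(value + 1) scale, the gap between the HS libraries was largest for FBN2 (1.45) and smallest for FBLN5 (0.20). The gap between the drug-loaded MNs libraries was largest for EFEMP1 (1.24) and smallest for FBLN5 (0.0077).

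Markers of fibroblasts were higher in the same group as the members. All 9 fibroblast markers in the table were higher in drug-loaded MNs with no overlap of the groups, beside 26.6% of all tested genes. Their median log2 fold change was 0.92. None of them passed in limma (lowest adjusted p 0.257), and all 9 had an unadjusted p under 0.05, beside 7.26% of all genes. This list holds collagen, proteoglycan and adhesion genes of dermal fibroblasts (DCN, LUM, COL1A1, COL1A2, COL3A1, DPT, COL14A1, MFAP5 and CDH11). Its summed level was 23338 and 22903 units in HS, against 45413 and 49298 with drug-loaded MNs.

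Set against these markers, the differences between the groups were smaller in the members. The mean log2(value + 1) of the 9 fibroblast markers was 1.08 higher in drug-loaded MNs, and this mean was subtracted from each member library by library. In replicates 1 and 2 it was 9.02 and 9.20 in HS, against 10.16 and 10.22 with drug-loaded MNs. It was thus higher in replicate 2 of each group, whereas FBN2, EFEMP1, FBLN2 and EMILIN1 were higher in replicate 1. FBLN5 then stood at -5.61 and -5.59 in HS, against -5.62 and -5.67 with drug-loaded MNs, a difference of -0.046 on the log2 scale, with groups that just failed to overlap. EFEMP1 differed by 0.047, FBLN2 by -0.23 and EMILIN1 by -0.21, each with overlapping groups. FBN2 kept the largest difference, 0.64, from -4.22 and -5.86 in HS to -4.08 and -4.73 in drug-loaded MNs, where the groups also overlapped. The subtraction widened the gap between the HS libraries for FBN2 (1.45 to 1.64), EFEMP1 (0.64 to 0.82), FBLN2 (0.42 to 0.60) and EMILIN1 (0.71 to 0.89). For FBLN5 this gap narrowed, from 0.20 to 0.018. The marker MFAP5 is itself a microfibril gene, with a log2 fold change of 1.33. These values are a description, and no test was planned or run on them. The part of fibroblasts in the members' values was not tested.

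**Figure D3:**
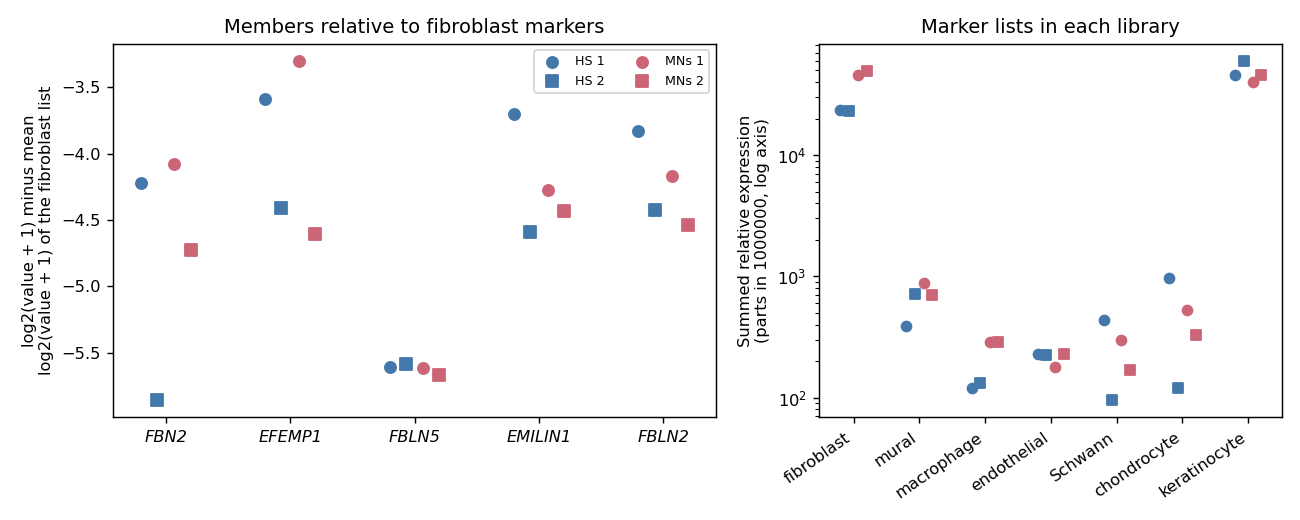
Left, log2(value + 1) of each member minus the mean log2(value + 1) of 9 fibroblast markers in the same library; right, summed relative expression of marker lists (parts in 1000000, log axis), for 2 HS (blue) and 2 drug-loaded MNs libraries (red), circles for replicate 1 and squares for replicate 2. On the left, red and blue points interleave in FBN2, EFEMP1, FBLN2 and EMILIN1 and nearly coincide in FBLN5; on the right, both red points are higher in the fibroblast and macrophage lists.

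Other cell types that can make elastic fibre proteins were less regular. Mural markers, from smooth muscle cells and pericytes, were higher in 6 of 6 genes (median log2 fold change 0.55). Without HS replicate 1 this was 4 of 6 with a median of 0.035, and without HS replicate 2 the median was 1.06. Their sum was 389 and 718 units in HS, against 889 and 698 with drug-loaded MNs, so the groups overlapped. Chondrocyte markers were read because the rabbit ear holds elastic cartilage, which lies under the ventral dermis. COL2A1 and ACAN, which define this cell type, were not analysed here. The 7 chondrocyte genes in the table summed to 967 and 120 units in HS, against 530 and 329 with drug-loaded MNs, with 0 of them at 0 in all libraries. This sum was higher in replicate 1 of each group, as were FBN2, EFEMP1, FBLN2 and EMILIN1, although COL9A2 and MATN1 were lower in drug-loaded MNs replicate 1 than in replicate 2. COL9A1, a chain of cartilage collagen, stood at 273 and 6.53 units in HS, against 127 and 83.3 with drug-loaded MNs. The part of chondrocytes in the members' values was not tested. Schwann cell markers showed the same order, at 435 and 95.0 units in HS, against 298 and 170 with drug-loaded MNs, mostly through S100B, which chondrocytes also express. Their median log2 fold change of 0.73 was -0.040 without HS replicate 1 and 1.19 without HS replicate 2.

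Macrophage markers were also higher in 8 of 8 genes without overlap of the groups, beside 26.6% of all tested genes. Their sums were 121 and 132 units in HS, against 290 and 287 with drug-loaded MNs. The markers kept this direction under every alternative that was run, but some were low, and only 5 of the 8 passed a minimum mean of 5 units. Endothelial markers summed to 228 and 223 units in HS, against 178 and 228 with drug-loaded MNs, with 4 of 7 genes higher (3 under median ratio scaling, quantile scaling or without drug-loaded MNs replicate 2). Keratinocyte markers were lower in 6 of 8 genes (all 8 under median ratio scaling), with a median log2 fold change of -0.16 and overlapping groups in all 8. This direction rested on single libraries: 5 of 8 were higher without HS replicate 2 (median 0.15) and 4 of 8 without drug-loaded MNs replicate 2 (median 0.014), and leaving out the other HS or drug-loaded MNs library gave medians of -0.52 and -0.295. Genes of the dissociation response, which cell isolation induces, were lower in 4 of 4, with a median of -0.15 and overlapping groups, but 3 of 4 were higher without HS replicate 2 (median 0.20) and 2 of 4 without drug-loaded MNs replicate 1 (median -0.11). The other 2 ways to leave out a library gave medians of -0.66 and -0.23. The part of these cell types in the members' values was not tested.

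The pathway around the members was read from a list of 66 further genes in 7 groups, of which 38 were in the table and 36 passed the filter on low values. Of these 36, 32 had a log2 fold change above 0, where 64.6% of all genes did, and 0 passed in limma (lowest adjusted p 0.257). Under both median ratio scaling and quantile normalization, where the median of all genes was itself below 0, 27 were above 0. With 1 library left out, 27 to 30 were above 0. At an unadjusted p under 0.05 there were 9 higher and 0 lower genes, where 7.26% of all genes were higher and 1.39% lower. Their median was 0.39 on the log2 scale, below the 1.03 of the members and above the 0.12 of all genes. In 19 of the 36 genes drug-loaded MNs was higher without overlap, beside 26.6% of all genes, and in 16 the groups overlapped. In 1 of the 36, CST3, it was lower without overlap, beside 11.2% of all genes.

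**Figure D4:**
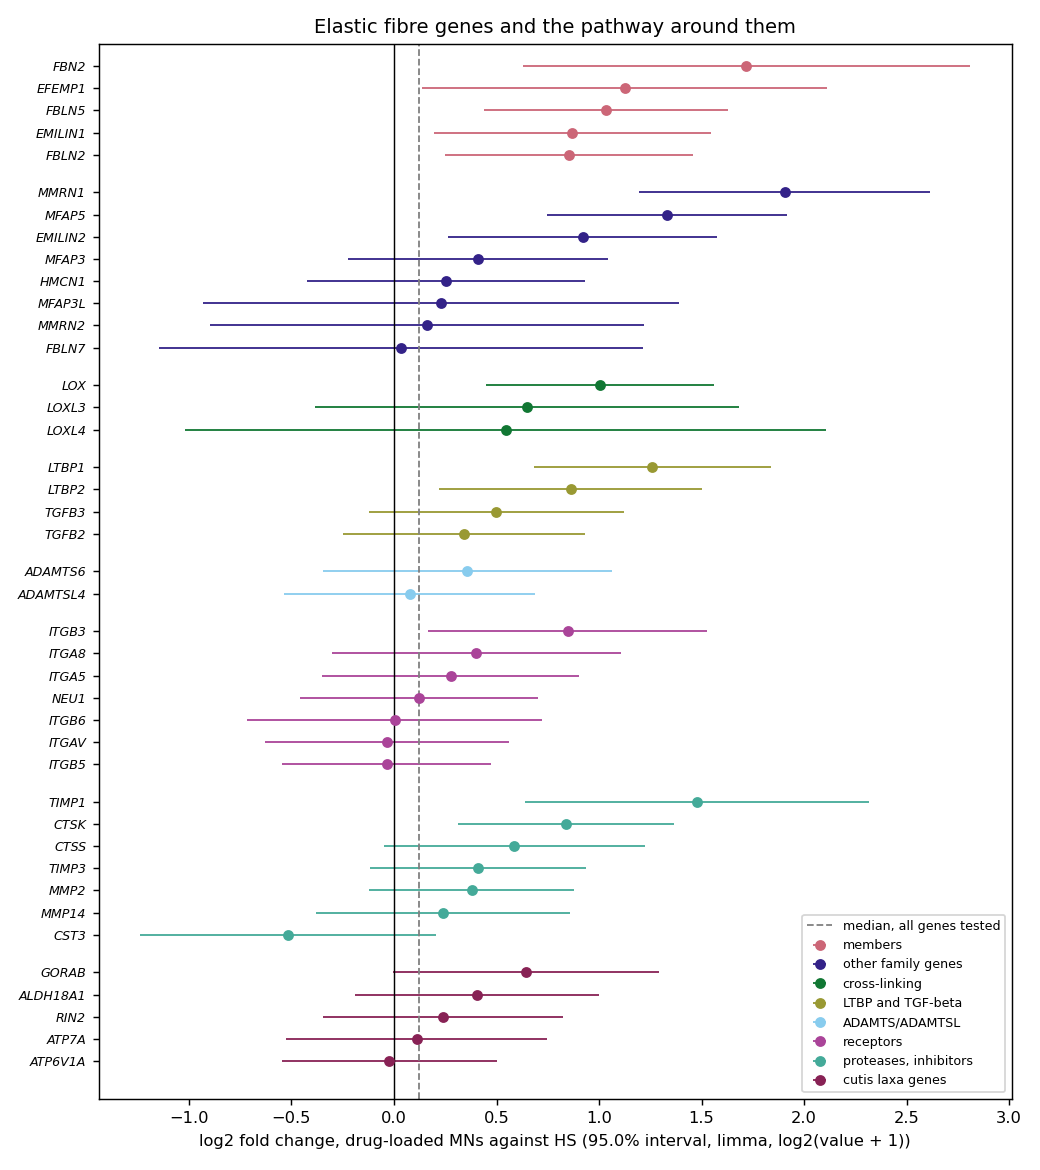
Log2 fold change with 95% interval (limma, log2(value + 1), n = 2 libraries per group) for the 5 analysed members and 36 further genes of elastic fibres in 7 groups, with the median of all tested genes at 0.12 (dashed). The members lie between 0.85 and 1.72; the receptor and cutis laxa groups center closer to the dashed line.

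The other members of the fibrillin, fibulin, microfibril and EMILIN families had log2 fold changes above 0 in 8 of 8 tested genes (7 after median ratio scaling, 6 after quantile normalization and 5 without HS replicate 1), and 3 of them had an unadjusted p under 0.05 in limma. MMRN1, multimerin-1, is an EMILIN family protein of platelets and endothelium, and it had the highest log2 fold change of the 36 genes. Its expression was 5.04 and 5.78 units in HS, against 28.5 and 18.5 with drug-loaded MNs, and the log2 fold change was 1.91 (SE 0.30, adjusted p 0.257 in limma). MFAP5, a microfibril glycoprotein made by fibroblasts and also one of the fibroblast markers above, stood at 33.4 and 33.3 units in HS, against 72.1 and 101 with drug-loaded MNs. EMILIN2, at 11.1 and 14.1 units in HS, against 21.0 and 28.5 with drug-loaded MNs, also had groups that did not overlap. At the other end FBLN7 had a log2 fold change of 0.034, which is below the shift between scalings, with 13.3 and 3.70 units in HS, against 6.28 and 8.66 with drug-loaded MNs.

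All 3 cross-linking enzymes and all 4 genes of the TGF-beta group in the table had log2 fold changes above 0, also under median ratio and quantile scaling, with 1 and 2 of them at an unadjusted p under 0.05 in limma. Without HS replicate 2 only 1 of the 3 cross-linking enzymes was above 0, and their median moved from 0.65 to -0.021. It was 1.31 without HS replicate 1. The TGF-beta group kept all 4 above 0 whichever library was left out. LOX, the lysyl oxidase that cross-links elastin and collagen, was at 206 and 273 units in HS, against 443 and 512 with drug-loaded MNs (log2 fold change 1.004, SE 0.24, adjusted p 0.314 in limma). The other 2 cross-linking genes in the table, LOXL3 and LOXL4, had log2 fold changes of 0.65 and 0.54 with overlapping groups. LTBP1, which ties latent TGF-beta to fibrillin microfibrils, stood at 62.1 and 59.5 units in HS, against 175 and 123 with drug-loaded MNs (log2 fold change 1.26, SE 0.25, adjusted p 0.264 in limma). LTBP2, which binds fibrillin-1 and not latent TGF-beta, had 18.0 and 27.3 units in HS, against 42.7 and 39.7 with drug-loaded MNs. The TGF-beta ligands had smaller differences, with log2 fold changes of 0.34 for TGFB2 and 0.50 for TGFB3. Their unadjusted p-values in limma were 0.217 and 0.099. The groups overlapped in neither gene, beside 26.6% of all tested genes higher without overlap. For TGFB2 the separation was narrow, with 33.2 and 36.6 units in HS, against 51.7 and 38.1 with drug-loaded MNs.

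Receptors of elastin and fibrillin lay near the median of all genes. Over the 7 tested genes the median log2 fold change was 0.12, with 5 above 0 and 2 below (3 and 4 under both median ratio scaling and quantile normalization). The highest was ITGB3, an integrin chain that binds the RGD sites of fibrillin and fibulin-5, at 0.85, with only 1.07 and 1.11 units in HS, against 2.88 and 2.64 with drug-loaded MNs. The lowest was ITGB5, at 139 and 136 units in HS, against 148 and 122 with drug-loaded MNs (log2 fold change -0.036). ADAMTS6 and ADAMTSL4, from the protease and protease-like families that associate with microfibrils, had log2 fold changes of 0.36 and 0.078, and 1 of these 2 turned below 0 under each of median ratio and quantile scaling.

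Proteases that cut elastin and their inhibitors ran from -0.52 to 1.48, with 6 of 7 tested genes above 0 and 2 (TIMP1 and CTSK) at an unadjusted p under 0.05 in limma. TIMP1, an inhibitor of matrix metalloproteinases, stood at 286 and 170 units in HS, against 828 and 457 with drug-loaded MNs (log2 fold change 1.48, SE 0.36, adjusted p 0.316 in limma). CST3, cystatin C, which inhibits the elastin-cutting cathepsins, was the lowest at -0.52, with 5724 and 3548 units in HS, against 2871 and 3453 with drug-loaded MNs. CTSK, cathepsin K, an elastase of fibroblasts and macrophages, stood at 310 and 244 units in HS, against 508 and 478 with drug-loaded MNs. MMP12, the macrophage elastase, had at most 1.19 units in any library and did not pass the filter, and MMP7 was listed at 0 in all 4 libraries. The 5 tested genes of inherited cutis laxa, a disorder of lax skin, had a median of 0.24, which was 0.025 without HS replicate 1. GORAB, a Golgi protein, was the highest of them at 0.65 and ATP6V1A, a proton pump subunit, the lowest at -0.023.

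The genes closest to the members in pattern were found by the Euclidean distance between log2(value + 1) profiles over 4 libraries, each centered on its own mean and set against the mean profile of the 5 members. SOBP (distance 0.077), CORO1A (0.12), SPP1 (0.13), GAP43 (0.16) and CFP (0.17) were the nearest of the tested genes with a symbol. Of the members, FBLN2 lay nearest to their mean profile (0.31) and FBN2 farthest (0.85). SOBP, the closest, had 1.84 and 1.01 units in HS, against 4.93 and 3.41 with drug-loaded MNs. With 4 libraries such a likeness is a description only.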

How the data were processed

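The authors sequenced 10x Genomics 3' v2 libraries, counted molecules with Cell Ranger (version 2.1.1 per the labels) and processed the counts in Seurat after filtering cells and correcting technical differences between samples. Whether the values had passed that correction was not stated, and doublets could not be called again. The build named in the submitters' processing notes is mm10, a mouse build, although the gene identifiers are those of rabbit, so no coordinates are given. The deposited table held 1 signal value per gene and library. It is named for FPKM, but each column summed to 10000, and gene length correction was not stated. Only 18.6% to 21.7% of the low values (up to 20 times the smallest) lay within 0.1 of whole multiples of the smallest, so reads were not recovered and no count model was run.

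Values were brought to 1000000 in each library. Of 13913 genes, 10207 of them with a symbol, 9348 had a mean of 1 unit or more and were tested. The model on log2(value + 1) had the group as its only term (lmFit, then eBayes with trend, limma 3.58.1, R 4.3.3). P-values are two-sided with Benjamini-Hochberg adjustment over all genes and a threshold of 0.05. The design assumed FPKM-like values, and the same test was used for this signal. The fit was also run on simulated data with independent noise in each library. That simulation held no shared library effect, so it does not measure how the fit performs on these libraries.

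Genes named were the members, the highest and lowest gene of each pathway group and the 5 nearest profiles. Any gene of the pathway or marker lists past the threshold was also to be named. EMILIN2, MFAP5, LOXL3, CTSK, MMP7, MMP12, LTBP2, TGFB3, COL9A1, COL9A2, MATN1 and S100B were named after their values were seen. The nearest profiles of ELN were planned and not computed, as ELN was not analysed here. The members and lists were chosen with earlier results of these data known. Alternatives were 3 other scalings, 2 pseudocounts, 2 filters, 2 forms of eBayes, the replicate number as a block and leaving out each library.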

Additional observations from a re-analysis of the deposited data

How the results depend on the processing

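All 5 analysed members kept a log2 fold change above 0 in all 14 alternatives, and the adjusted p of FBN2 and EFEMP1 passed the threshold in 2 each. Of all genes, 4 passed the threshold, and this count was 0 after median ratio scaling, after quantile normalization, with a library total that leaves out mitochondrial, ribosomal protein and the 50 highest genes, a pseudocount of 5 and no filter, and 1 with eBayes without trend. With 1 library left out it was 0 to 75, on the assumption that a library left alone varies as the pair does. With the replicate number as a block it was 241, and FBN2 (adjusted p 0.000141) and EFEMP1 (adjusted p 0.0121) were among them. Same-numbered libraries shared only a number, with deviations from group means correlated at 0.22 across genes, and the block left 1 residual degree of freedom.

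The median of the members (1.03) was 0.83 with a pseudocount of 5 and 0.81 to 1.22 with 1 library left out. The median of the 36 pathway genes (0.39) was 0.26 under median ratio scaling, 0.25 under quantile normalization and 0.31 to 0.47 with 1 library left out. The fibroblast median (0.92) was 0.78 under median ratio scaling and 0.91 to 1.22 with 1 library left out. Over all genes the median (0.12) was -0.011 after median ratio scaling and -0.020 after quantile normalization, and 0.043 to 0.19 with 1 library left out. Under median ratio scaling, 3 of 5 members had an unadjusted p under 0.05 in limma, and 4 of 5 under quantile normalization or with no filter. At an unadjusted p under 0.05 the split of directions moved with the scaling, to 428 higher and 299 lower under quantile normalization. The cause was not tested. The number of libraries, 2 in each group, limits the precision, and the limit set by depth could not be measured.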
